A study of Mus musculus with 6 samples.

Results

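The IL-6 family receptors and the JAK-STAT3 genes downstream of them were followed in mouse liver after hepatic ischemia and reperfusion (IR injury), in which the blood supply of liver tissue is interrupted and restored. The 10 genes were taken by symbol from a deposited table of 29543 genes: the receptor subunits Il6ra, Il6st, Osmr and Lifr, the kinases Jak1, Jak2 and Tyk2, the transcription factor Stat3, and the inhibitors Socs1 and Socs3. Each symbol had 1 row, and all 10 genes passed the filter of a mean of at least 1 FPKM over the 6 libraries, which left 10316 genes. Osmr and Socs1 had Sham means of 0.755 and 0.172 FPKM and met this filter only through IR injury, the group where they were high. FPKM is the number of a gene's fragments scaled to the length of its exons and to the size of the library.

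The study extracted total RNA of liver and sequenced 3 IR injury and 3 Sham libraries made with an mRNA-Seq kit. Sham animals had the laparotomy that both groups share and no ischemia. No source used here gives the strain, sex or age of the mice, or how long ischemia and reperfusion lasted. Libraries are labelled as replicate biosamples with no animal named, and the p-values therefore reflect library-to-library spread that could be technical.

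Cytokines of the IL-6 family act through receptors that share the signal-transducing subunit gp130, the product of Il6st. IL-6 binds the alpha receptor encoded by Il6ra, oncostatin M binds a complex with the Osmr product, and leukemia inhibitory factor binds one with the Lifr product. JAK1, JAK2 and TYK2 are bound to these receptors and phosphorylate STAT3, which enters the nucleus and activates genes that include Socs3, whose protein blocks the receptor in turn. In the liver this pathway is best known for driving the acute phase response of hepatocytes and for its part in regeneration.

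The rebuilt depth of a Sham library lay between 53622227 and 71752590 reads, and that of an IR injury library between 54042839 and 68922524. Most genes differed between the groups. Of all genes tested, 78.1% passed limma's adjusted threshold of 0.05, 24.3% higher and 53.8% lower in IR injury, and the libraries of the groups did not overlap in 80.6%. Over all genes tested the median change was -0.23 (log2). Median-of-ratios scaling moved that median to 0.0027, and then 38.2% of genes were higher and 38.1% lower. Fold changes below are IR injury minus Sham on the scale of log2(FPKM + 1), with the limma standard error (SE), and "above the median of all genes" refers to -0.23. The liver label was checked against 8 hepatocyte genes, led by Alb and Apoa1. Their summed level was 58759 to 61852 FPKM in Sham and 50384 to 52727 in IR injury. By gene, 2 were higher, 4 lower and 2 not called. Under median-of-ratios scaling 3 were higher and 0 lower, and 4 changed sign, so the list had no clear direction.

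Of the 10 genes, 8 rose and 2 fell, beside 24.3% and 53.8% of all genes tested. The groups did not overlap in any of the 10, nor in 80.6% of all genes. The same 8 and 2 genes passed in these directions under median-of-ratios scaling, and also when limma was run with no filter on low values. The median of the 10 log2 fold changes was 0.80. In 3 of the 10 (Stat3, Socs1 and Socs3) the change was at least 1 in size on the log2 scale, against 17.4% of all genes in either direction. This count depends on the 1 added to each FPKM. With 0.1 added in its place, Il6st (1.01), Osmr (1.25), Jak2 (1.01) and Tyk2 (-1.20) also reached that size. The share of all genes was not taken with 0.1 added. The genes were chosen with results of these data known, so the counts describe them and do not test them as a group. Values are of whole tissue, in which fewer cells of a type and less RNA per cell cannot be told apart.

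**Figure D1:**
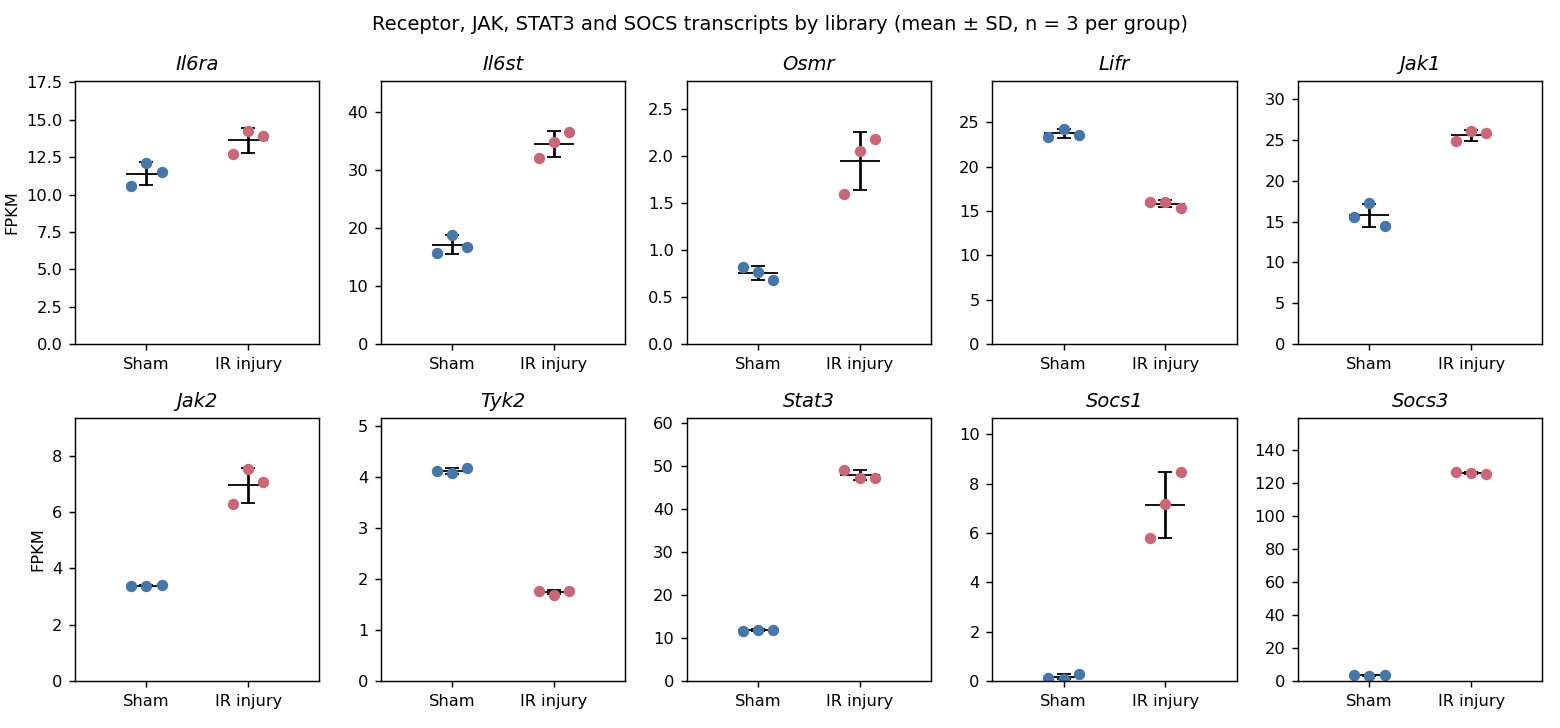
FPKM of the 10 genes in each library, 1 panel per gene with its own axis from 0, Sham in blue and IR injury in red, with horizontal bars for the mean and error bars for the SD over 3 libraries. Lifr and Tyk2 are lower in all 3 IR injury libraries, and the other 8 genes are higher in all 3.

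The promoters of the 3 genes that changed most, Socs3, Socs1 and Stat3, are shown because these genes rose together and STAT factors bind a known motif. The sequences come from RefSeq for the build GRCm38.p6 and run toward the annotated start. Capitals mark the motif TTCNNNGAA, which reads the same on both strands. It was searched in the 250 bases before each RefSeq start. The bases of Socs3 nearest to the start were left out because GENCODE M21 places an exon of a noncoding transcript of the gene there. Another noncoding transcript of the gene begins further upstream, so the printed stretch lies inside the annotated span of Socs3.
Socs3, minus strand, chr11:117969452-117969616: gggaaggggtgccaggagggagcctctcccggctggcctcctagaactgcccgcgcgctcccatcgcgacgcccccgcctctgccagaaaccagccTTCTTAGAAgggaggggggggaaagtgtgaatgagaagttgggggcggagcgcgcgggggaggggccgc
Stat3, minus strand, chr11:100939541-100939790: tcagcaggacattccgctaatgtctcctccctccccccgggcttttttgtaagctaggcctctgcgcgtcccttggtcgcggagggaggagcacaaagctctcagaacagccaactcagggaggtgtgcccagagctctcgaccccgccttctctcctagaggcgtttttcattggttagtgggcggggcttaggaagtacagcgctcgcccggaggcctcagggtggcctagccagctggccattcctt
Socs1, minus strand, chr16:10785537-10785786: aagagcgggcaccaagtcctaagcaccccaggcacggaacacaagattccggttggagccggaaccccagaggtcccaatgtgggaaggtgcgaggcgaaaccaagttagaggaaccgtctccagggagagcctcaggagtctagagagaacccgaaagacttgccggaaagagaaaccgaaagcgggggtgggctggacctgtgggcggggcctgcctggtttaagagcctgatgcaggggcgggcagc

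Socs3 was the only member with a match, which began 154 bases before the RefSeq start. The motif was present before at least 1 start in 1 of 10 members and in 7.05% of the 7632 tested genes matched by symbol. A match is a description of the letters and not a bound site, and the 9 members without one may hold it outside this window.

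Among the receptor subunits, the shared subunit Il6st rose, Osmr rose from a low level, Il6ra rose slightly and Lifr fell. Il6st (ENSMUSG00000021756, mm10 chromosome 13, 112464070 to 112510086, plus strand, protein coding) was at 15.7, 18.9 and 16.7 FPKM in the Sham libraries and at 32.1, 34.7 and 36.5 in the IR injury libraries. Each IR injury library lay above each Sham library. The means were 17.1 ± 1.61 and 34.5 ± 2.23 FPKM (SD, n = 3), a ratio of 2.01, with a log2 fold change of 0.97 (SE 0.0767, limma adjusted p = 1.24e-05).

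Osmr encodes the subunit that joins gp130 in the oncostatin M receptor (ENSMUSG00000022146, mm10 chromosome 15, 6813577 to 6874969, minus strand, protein coding). It was the lowest of the 4 receptor genes, at 0.821, 0.767 and 0.677 FPKM in Sham and 1.60, 2.05 and 2.18 in IR injury, or 440 to 667 and 1110 to 1711 rebuilt reads. All IR injury libraries were above all Sham libraries, and the library IR injury 1 was the lowest of its group. The ratio of the means was 2.57, against a log2 fold change on the scale of FPKM + 1 of 0.74 (SE 0.0864, limma adjusted p = 0.000111). With limma voom on rebuilt reads, which adds no 1 to each FPKM, it was 1.35.

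Il6ra, the IL-6 binding subunit (ENSMUSG00000027947, mm10 chromosome 3, 89864059 to 89913196, minus strand, protein coding), was at 10.6, 12.1 and 11.5 FPKM in Sham and at 12.7, 14.3 and 13.9 in IR injury. The groups did not overlap, but the highest Sham and the lowest IR injury library were close. On the log2 scale the change was 0.24 (SE 0.0653, limma adjusted p = 0.0106), and 0.47 above the median of all genes. It was the smallest change of the 10 genes under the deposited scaling. Under median-of-ratios scaling it was 0.52, larger in size than that of Lifr.

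Lifr, the receptor subunit for leukemia inhibitory factor (ENSMUSG00000054263, mm10 chromosome 15, 7090614 to 7197489, plus strand, protein coding), was the most abundant of the 10 genes in Sham. Its levels were 23.4, 24.3 and 23.6 FPKM in Sham and 16.1, 16.0 and 15.4 in IR injury. All 3 IR injury libraries lay below the Sham libraries, with means of 15.8 ± 0.397 and 23.7 ± 0.469 FPKM (SD, n = 3). Its fold change was -0.56 on the log2 scale (SE 0.0429, limma adjusted p = 1.09e-05), and -0.27 under median-of-ratios scaling.

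The make-up of the receptor messages differed between the groups. Each share is taken within a library and so needs no scaling between libraries, and these class shares were added after the values were seen. Of the summed FPKM of the 4 subunits, Lifr held 43.3% to 46.3% in the Sham libraries and 22.6% to 25.7% in the IR injury libraries. Il6st held 31.1% to 33.7% in Sham and 51.4% to 53.7% in IR injury. Il6ra had a share that overlapped between the groups, with means of 21.5% and 20.7%, and Osmr held 1.29% to 1.63% and 2.56% to 3.21%. These FPKM use the length of all annotated exons of a gene, so that levels of different genes also depend on the annotation.

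**Figure D2:**
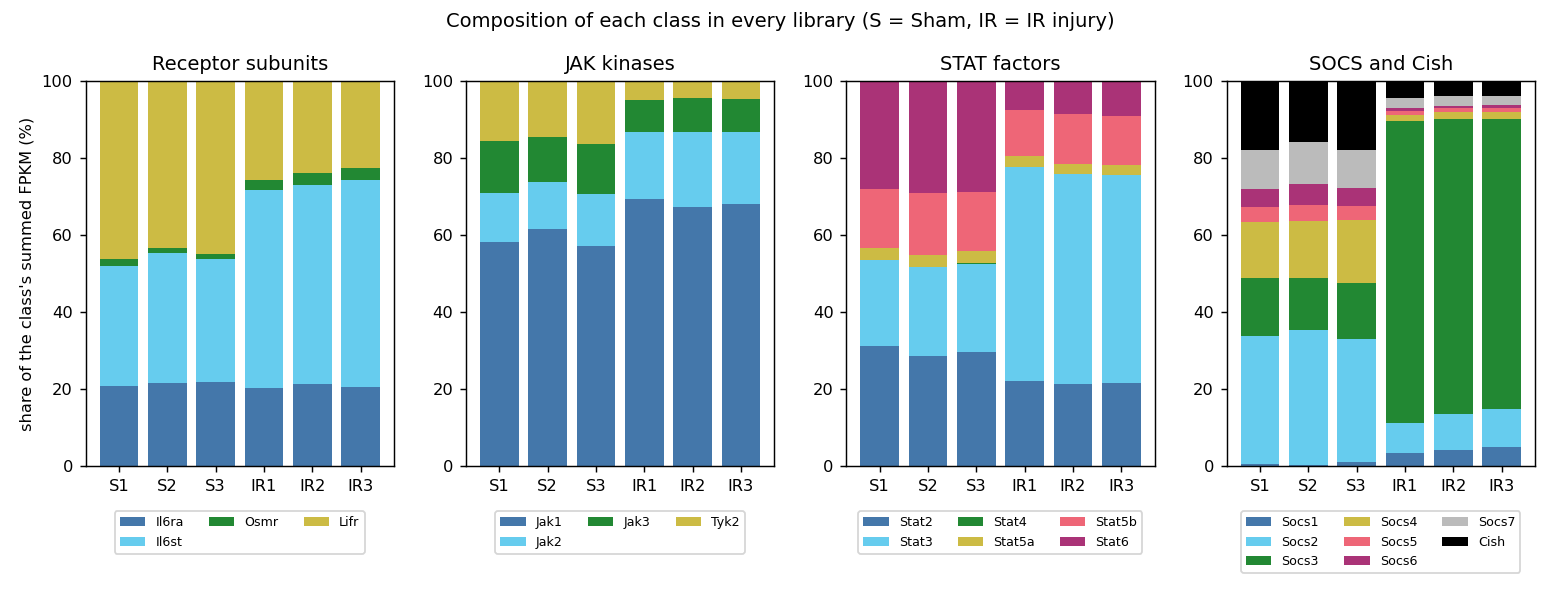
Share in percent of the summed FPKM of each class held by each gene, as stacked bars per library, for 4 receptor subunits, 4 JAK kinases, 6 STAT factors and 8 genes of the SOCS family including Cish. In IR injury the largest share passes from Lifr to Il6st among receptors (52.3% on average), to Stat3 among these STAT factors (54.6%) and to Socs3 among SOCS genes (76.7%).

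Among the kinases Jak1 and Jak2 rose and Tyk2 fell. Jak1, the kinase needed for most gp130 signalling (ENSMUSG00000028530, mm10 chromosome 4, 101152367 to 101265282, minus strand, protein coding), was at 15.5, 17.2 and 14.5 FPKM in Sham and at 24.8, 26.1 and 25.8 in IR injury. It was the most abundant kinase in every library. The ratio of the means was 1.62 and the log2 fold change 0.67 (SE 0.0652, limma adjusted p = 4.07e-05).

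Jak2, which also serves the growth hormone and prolactin receptors (ENSMUSG00000024789, mm10 chromosome 19, 29251828 to 29313080, plus strand, protein coding), was at 3.38, 3.37 and 3.40 FPKM in Sham, a coefficient of variation of 0.438%. It was at 6.29, 7.52 and 7.07 FPKM in IR injury. All IR injury libraries were higher, with a ratio of the means of 2.05 and a log2 fold change of 0.86 (SE 0.0642, limma adjusted p = 9.40e-06).

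Tyk2, a kinase that also serves the type I interferon receptor (ENSMUSG00000032175, mm10 chromosome 9, 21104068 to 21131243, minus strand, protein coding), was at 4.11, 4.07 and 4.17 FPKM in Sham and at 1.76, 1.69 and 1.76 in IR injury. The spread within each group was small beside the gap, and the mean was 2.37-fold lower in IR injury. On the log2 scale the change was -0.90 (SE 0.0456, limma adjusted p = 1.19e-06). GENCODE M21 places the antisense gene 1700084C06Rik over most of the span of Tyk2 on the opposite strand. The overlap was taken on gene spans and not on exons, and no source used here gives the handling of strand. Whether reads of the antisense gene were counted for Tyk2 is therefore not known.

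Jak3, a kinase of lymphocyte cytokine receptors, did not pass, with 3.59, 3.29 and 3.28 FPKM in Sham and 2.94, 3.40 and 3.24 in IR injury (log2 fold change -0.07, limma adjusted p = 0.346), and it passed as higher under median-of-ratios scaling (0.17). Of the summed FPKM of the 4 kinases Tyk2 held 14.5% to 16.4% in the Sham and 4.36% to 4.91% in the IR injury libraries. Jak1 held 57.2% to 61.7% and 67.4% to 69.3%.

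Stat3, the factor that carries the signal to the nucleus (ENSMUSG00000004040, mm10 chromosome 11, 100885098 to 100939540, minus strand, protein coding), was at 11.5, 11.9 and 11.9 FPKM in Sham and at 49.1, 47.2 and 47.3 in IR injury. The groups were far apart and each was tight, with coefficients of variation of 1.88% and 2.30%. The ratio of the means was 4.07. On the log2 scale the change was 1.94 (SE 0.0421, limma adjusted p = 3.13e-08), rank 246 from the top of all genes tested. Stat3 and Stat5a overlap by 72 bases on opposite strands.

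Other STAT genes and Jak3 formed a list of 6. Of its 5 tested genes 3 rose and 1 fell, beside 24.3% and 53.8% of all genes tested, with a median log2 fold change of 0.28. After median-of-ratios scaling 4 were higher and 1 lower, beside 38.2% and 38.1% of all genes. Stat5b, which serves growth hormone in the liver, rose from 7.88, 8.20 and 8.02 to 10.6, 11.1 and 11.2 FPKM (0.40, limma adjusted p = 7.50e-05). Its close relative Stat5a rose (0.37), as did Stat2 of the interferon pathway (0.28). Stat6, the factor for interleukin 4 and 13, fell from 14.9 to 7.36 FPKM (-0.93, limma adjusted p = 7.94e-06). Stat4 was under the filter, at 0.0465 to 0.108 FPKM in all libraries.

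Of the summed FPKM of 6 STAT genes, Stat3 held 22.1% to 23.1% in Sham and 53.9% to 55.5% in IR injury. In Sham both Stat2 and Stat6 held more than Stat3 in each library. In IR injury Stat3 held more than any other of the 6.

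Socs3, the inhibitor that binds gp130 and its JAKs (ENSMUSG00000053113, mm10 chromosome 11, 117966079 to 117970047, minus strand, protein coding), had the largest rise of the 10 genes on the log2(FPKM + 1) scale, while Socs1 rose more by the ratio of means and with limma voom. It was at 3.49, 3.04 and 3.52 FPKM in Sham and at 127, 126 and 125 in IR injury. The 3 IR injury libraries were nearly equal, with a coefficient of variation of 0.540%, and lay far above every Sham library. The ratio of the means was 37.6. On the log2 scale the change was 4.87 (SE 0.0543, limma adjusted p = 2.73e-09), rank 15 from the top of all genes tested.

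Socs1, an inhibitor best known for restraining interferon signalling (ENSMUSG00000038037, mm10 chromosome 16, 10782240 to 10785536, minus strand, protein coding), was barely detected in Sham. Its values were 0.124, 0.0959 and 0.295 FPKM, from 24, 20 and 46 rebuilt reads. In IR injury it was at 5.79, 7.16 and 8.46 FPKM, from 967, 1436 and 1329 reads. All IR injury libraries were above all Sham libraries, and the Sham group had a coefficient of variation of 62.9%. On the log2 scale the change was 2.79 (SE 0.125, limma adjusted p = 6.75e-07). The size depended on the pseudocount, with 4.79 at a pseudocount of 0.1 and 5.56 with limma voom on rebuilt reads, while the ratio of the mean FPKM was 41.6.

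**Figure D3:**
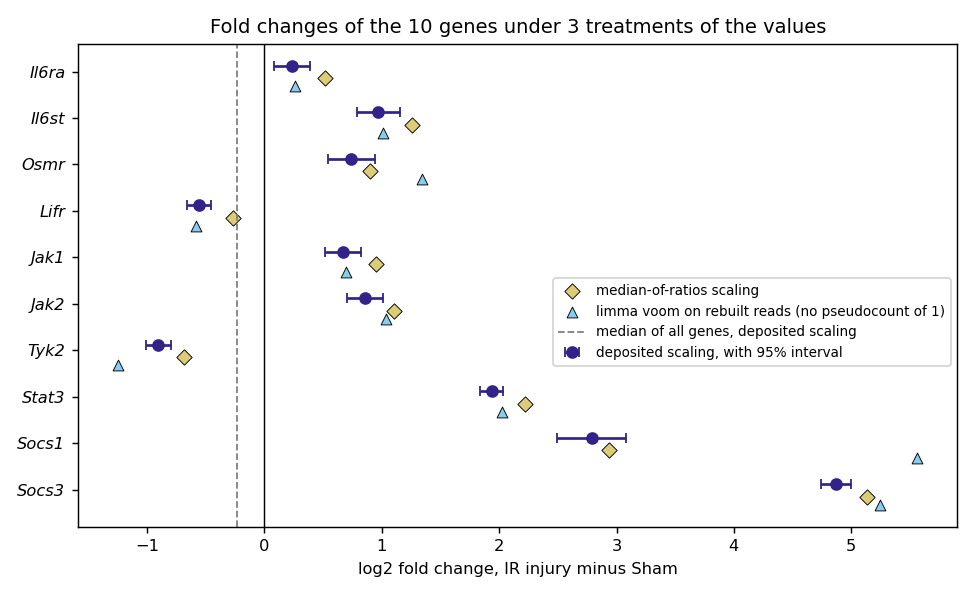
Log2 fold change of each of the 10 genes, with limma's 95% interval for the deposited scaling (circles), under median-of-ratios scaling (diamonds) and with limma voom on rebuilt reads (triangles), and a dashed line at the median of all genes. No gene changes sign, and Socs1 moves most, from 2.79 to 5.56.

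By level, the order of the 10 genes in Sham was Lifr, Il6st, Jak1, Stat3, Il6ra, Tyk2, Jak2, Socs3, Osmr and Socs1. Il6st and Jak1, Stat3 and Il6ra, and Jak2 and Socs3 overlapped between libraries and had no clear order. In IR injury the order was Socs3, Stat3, Il6st, Jak1, Lifr, Il6ra, Socs1, Jak2, Osmr and Tyk2. There Socs1 and Jak2 overlapped, as did Osmr and Tyk2. Socs3 was among the lowest in Sham and the highest in IR injury, at 126 ± 0.680 FPKM against 47.9 ± 1.10 for Stat3 (SD, n = 3).

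Ratios of 2 genes inside a library do not depend on how libraries were scaled, and 9 were compared. In 8 of them the groups did not overlap, although with 1 added to both FPKM values Jak2 to Jak1 was no longer fully apart (exact permutation p = 0.2). The exact two-sided permutation p was 0.1 for each of these, the smallest that 3 libraries against 3 allow, and 0.1125 after Benjamini-Hochberg adjustment over the 9 ratios, so that no ratio could pass 0.05. The ratio of Socs3 to Stat3 was 0.303, 0.256 and 0.295 in Sham and 2.58, 2.67 and 2.65 in IR injury. The inhibitor's message was thus below that of the factor in each Sham library and above it in each IR injury library. The ratio of Osmr to Lifr was 0.0351, 0.0316 and 0.0287 in Sham and 0.0993, 0.128 and 0.142 in IR injury, 3.84-fold higher in the mean.

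The ratio of Il6ra to Il6st was 1.69-fold lower in IR injury, with 0.641 to 0.689 in Sham libraries and 0.381 to 0.411 in IR injury libraries. The ratio of Tyk2 to Jak1 was 3.86-fold lower, while that of Jak2 to Jak1 was 1.26-fold higher. The ratio of Stat3 to Stat5b was 2.99-fold higher. The ratio of Osmr to Il6ra was 2.14-fold higher. Socs3 was 22.9-fold higher against Cish, the SOCS family inhibitor of STAT5 signalling. The ratio of Socs3 to Socs1 overlapped between the groups, with 11.9 to 31.7 in Sham and 14.8 to 21.8 in IR injury (exact permutation p = 0.6).

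**Figure D4:**
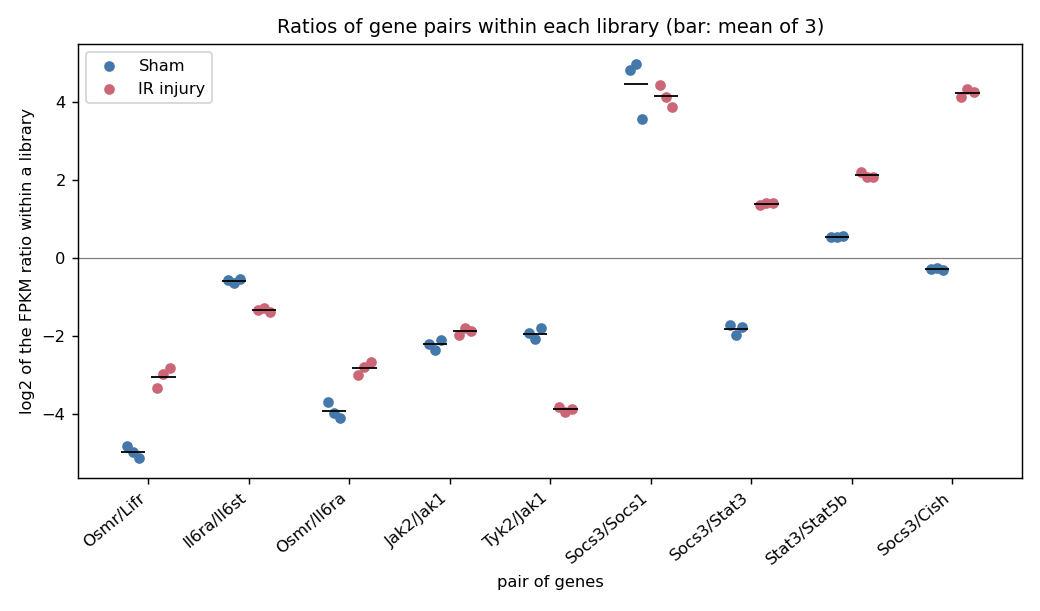
Log2 of the FPKM ratio of 9 gene pairs in each library, Sham in blue and IR injury in red, with a bar at the mean of 3 libraries. The groups are apart in 8 pairs and overlap for Socs3 and Socs1.

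Ligands of the family were low in the tissue. Of 10 ligand and ligand-partner genes, 1 passed the filter, the cardiotrophin gene Ctf1, which fell from 1.62, 1.75 and 1.76 FPKM to 0.430, 0.549 and 0.670 (log2 fold change -0.81, limma adjusted p = 2.42e-05). Ctf1 met the filter only through its Sham level, and it was also lower with no filter (limma adjusted p = 0.000275). Il6 was listed at 0, 0.0344 and 0 FPKM in Sham, from 0, 6 and 0 rebuilt reads, and at 0.531, 0.484 and 0.579 in IR injury, from 74, 81 and 76 reads. Osm, for oncostatin M, was at 0.0132, 0 and 0 FPKM in Sham, from 2, 0 and 0 reads, and at 0.184, 0.370 and 0.489 in IR injury, from 24, 58 and 60 reads. In both genes every IR injury library was above every Sham library.

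When limma was run with no filter, on 27520 genes of which 12.4% passed higher and 32.1% lower, 4 ligand genes passed higher. They were Il6 (adjusted p = 4.77e-05), Osm (adjusted p = 0.00690), Clcf1, a gp130 cytokine that uses the Cntfr subunit (adjusted p = 0.00175), and Cntf (adjusted p = 0.0261). Lif did not pass, at 0 to 0.0320 FPKM in Sham and 0.0425 to 0.0721 in IR injury, nor did Il11, Il27, Ebi3 or Il31. Of the family's other receptor subunits, Il11ra1 fell from 4.39 to 2.73 FPKM on average (-0.53, limma adjusted p = 0.000171). Cntfr, at 0.388, 0.661 and 0.402 FPKM in Sham and 1.13, 1.23 and 1.32 in IR injury, passed higher with no filter, and Il27ra passed lower.

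Genes that shed the receptors or relay the signal formed a list of 7, of which 6 rose and 1 fell (median log2 fold change 0.53). The shares over all genes tested were 24.3% and 53.8%. Adam17, the protease that releases soluble IL-6 receptor, rose from 2.93 to 4.69 FPKM on average (0.53, limma adjusted p = 4.92e-05). Rhbdf2, which brings ADAM17 to the cell surface, rose most, from 2.89, 2.67 and 2.77 to 10.8, 10.1 and 9.77 FPKM (1.57, limma adjusted p = 1.85e-07). Rhbdf1 (0.50), Adam10 (0.35) and the adaptors Grb2 (0.71) and Shc1 (0.60) rose, and the adaptor Gab1 fell (-0.48).

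Of 15 other negative regulators, 7 rose, 7 fell and 1 did not pass, beside 24.3% higher and 53.8% lower of all genes tested. Their median log2 fold change was 0.05. Socs5 met the filter only through IR injury (means of 0.925 FPKM in Sham and 1.52 in IR injury). Pias3 met it only through Sham (2.45 and 0.527 FPKM). With no filter 7 were higher, with Socs5, and 5 lower, with Pias3, beside 12.4% and 32.1% of all genes. After median-of-ratios scaling the counts were 8 higher and 3 lower, beside 38.2% and 38.1% of all genes. Ptpn2, which removes phosphate from JAKs and STATs, rose from 3.79, 4.40 and 3.74 to 37.4, 36.7 and 35.4 FPKM (2.92, limma adjusted p = 2.97e-08). Ptpn1 rose from 5.06, 5.27 and 5.35 to 20.3, 20.9 and 20.5 FPKM (1.79, limma adjusted p = 4.29e-08). Ptpn6, a phosphatase mainly of blood cells, fell (-1.07), and Ptpn11, which binds gp130 and carries its second signal to the MAP kinases, rose (0.42).

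Of the other SOCS genes, Socs2 (0.81), Cish (0.60), Socs7 (0.58) and Socs5 (0.39) rose. Socs6 did not pass (1.09 to 1.23 FPKM in Sham and 1.15 to 1.33 in IR injury) but was called higher after median-of-ratios scaling (0.21), and Socs4 fell by 0.19 but was at 0.04 under median-of-ratios scaling. Of 4 genes of the PIAS family, whose proteins bind STATs, 2 fell under both scalings. Pias3, the member named for binding STAT3, fell from 2.60, 2.38 and 2.38 to 0.485, 0.567 and 0.529 FPKM (-1.18, limma adjusted p = 9.40e-07). Pias4 also fell (-0.51). Pias1 (-0.18) and Pias2 (-0.23) passed as lower, but were at 0.04 each and not called after median-of-ratios scaling. Sh2b3, an adaptor that restrains JAK2, fell by 0.32 and did not pass under that scaling (-0.07).

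Socs3 held 13.3% to 14.9% of the summed FPKM of the 8 SOCS family genes in Sham and 75.4% to 78.3% in IR injury. Socs2 held the largest mean share in Sham, 33.5%, and 8.88% in IR injury, although it rose in FPKM from 7.79, 7.99 and 7.83 to 12.4, 15.3 and 16.2. The 8 genes summed to 22.8 to 24.5 FPKM in the Sham libraries and 162 to 166 FPKM in the IR injury libraries.

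Genes known to be induced by IL-6 and STAT3 in the liver were mostly higher, and the part of these or other signals in the rises was not tested. All 21 genes of an acute phase list rose, each under median-of-ratios scaling too, with a median log2 fold change of 1.67. Of all genes tested, 24.3% were higher, and 38.2% under median-of-ratios scaling. Serpina3n, a secreted protease inhibitor, was at 248, 259 and 252 FPKM in Sham and 2975, 3012 and 3211 in IR injury (3.59, limma adjusted p = 4.17e-09). Orm2, an orosomucoid gene, was at 23.1, 20.2 and 22.3 FPKM in Sham and 229, 199 and 169 in IR injury (3.12, limma adjusted p = 2.08e-07), a value that near-identical orosomucoid genes may share. Rises larger than these were seen for the serum amyloid genes Saa2 (7.20) and Saa1 (6.29), which are close copies, for Lcn2 (6.47), the iron-binding lipocalin, and for the metalloreductase gene Steap4 (4.99).

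The acute phase genes held the motif TTCNNNGAA before a RefSeq start in 6 of 17 matched by symbol, or 35.3%, beside 7.05% of the tested genes and 8.13% of all 27025 genes of the promoter table. Among genes of the other lists matched by symbol, it was held by 2 of 16 other STAT3 targets (12.5%) and 2 of 13 other cytokine receptors (15.4%). It was also held by 1 of 5 shedding and partner genes and 1 of 3 other receptors of the family. None of 7 ligand genes, 6 other JAK and STAT genes or 8 other negative regulators held it. The acute phase list was made of known IL-6 and STAT3 targets, so its share does not test STAT3 action in these data. The acute phase sites before Fga, Fgb, Itih4 and Apcs are shown with flanking bases so that their letters can be set beside the site of Socs3. Capitals mark the motif.
Socs3, minus strand, chr11:117969502-117969530: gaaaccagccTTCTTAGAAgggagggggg
Fga, plus strand, chr3:83025909-83025937: aggcccccatTTCCTGGAAtgtagattcc
Fgb, minus strand, chr3:83050007-83050035: gactcaatgaTTCGAGGAAccccctgtgt
Itih4, plus strand, chr14:30886415-30886443: aaacctgcatTTCCGAGAActtgcaccag
Apcs, minus strand, chr1:172895280-172895304: atcttcTTCTAGGAAagcacagggt

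Of these, Fga and Fgb encode chains of fibrinogen and rose by 1.59 and 1.67. Itih4 (1.02) and Apcs (1.29) encode secreted plasma proteins. These 4 genes are named for their match, not for the size of their change. Steap4 also has a match, which overlaps an exon, and rose by 4.99. The 6 acute phase genes with a match thus rose by 1.02 to 4.99, and the acute phase genes without one or not in the promoter table by 0.74 to 7.20.

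Of 18 other genes known as STAT3 targets, 15 rose, 1 fell and 2 did not pass, beside 24.3% higher and 53.8% lower of all genes tested. Their median log2 fold change was 1.54. Timp1, 1 of those that rose, met the filter only through IR injury, with means of 0.443 FPKM in Sham and 3.09 in IR injury. With no filter 15 were higher and 1 lower, beside 12.4% and 32.1% of all genes. The largest rise was that of Il1rn, the interleukin 1 receptor antagonist, from 2.64, 2.52 and 2.34 to 68.5, 61.6 and 66.5 FPKM (4.25, limma adjusted p = 4.75e-09). Nfil3, a transcription factor, rose by 3.93, the survival gene Bcl2l1 by 3.29, Junb by 2.97, Bcl3, a coactivator of the NF-kappaB family, by 2.90 and the acute phase factor Cebpd by 1.98. Ccnd1, the cyclin D1 gene, fell from 9.16, 9.44 and 9.67 to 1.85, 2.43 and 2.13 FPKM (-1.74, limma adjusted p = 4.95e-07). Irf1 and Vegfa did not pass, although Vegfa was called higher after median-of-ratios scaling (0.20); their levels were 7.24 to 8.49 and 43.9 to 45.9 FPKM in Sham and 6.09 to 7.65 and 40.5 to 43.6 in IR injury. Ccnd1, Irf1 and Vegfa were named after their values were seen. Many of these genes also answer to other signals, whose part was not tested.

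**Figure D5:**
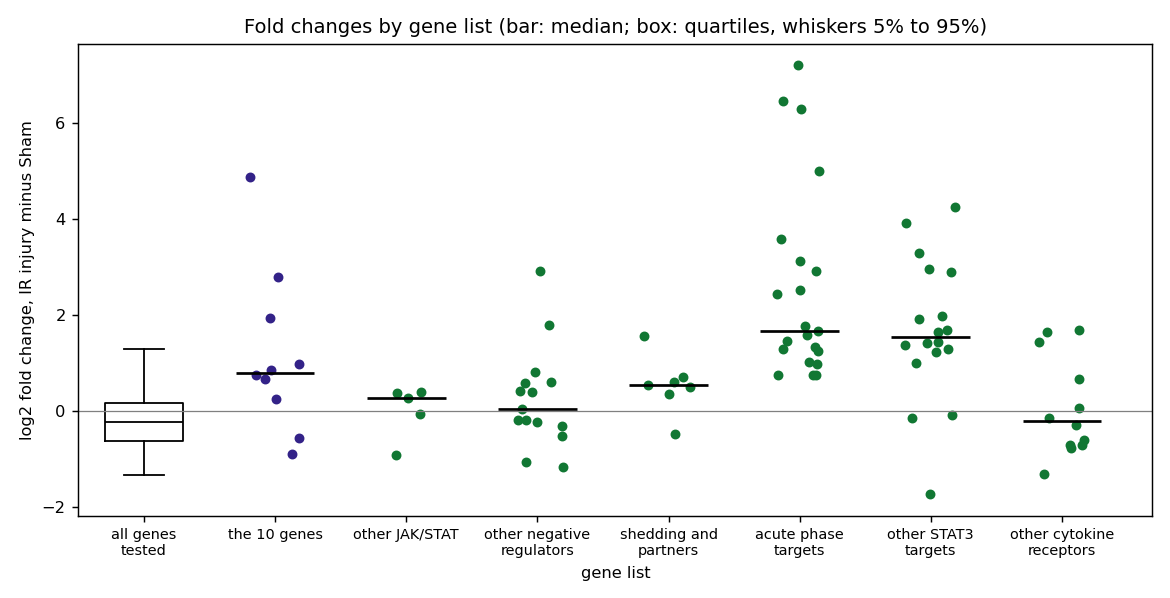
Log2 fold change of each tested gene by list, with the 10 genes in dark blue, lists of the pathway in green, a bar at each median, and a box for all 10316 genes (quartiles, whiskers from 5% to 95%). The medians are 0.80 for the 10 genes, 1.67 for acute phase targets, 1.54 for other STAT3 targets and -0.23 for all genes.

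Markers of some other cell types differed between the groups, while the sums of other lists overlapped. For the counts that follow, 24.3% of all genes tested were higher and 53.8% lower. Of 8 neutrophil markers 6 were tested and all 6 rose. The filter uses the mean of both groups, so a marker low in Sham can enter the test through IR injury alone. The neutrophil list summed to 8.79 to 10.9 FPKM in the Sham libraries and 139 to 184 in the IR injury libraries. The sum of 10 Kupffer cell markers was 358 to 369 FPKM in Sham and 195 to 246 in IR injury, with 8 lower and none higher. Of 9 sinusoidal endothelial markers 7 fell and 1 rose, but their sum overlapped, with 61.4 to 69.7 FPKM in Sham and 38.7 to 79.7 in IR injury. Of 7 tested stellate cell markers 6 fell. The sum of the stellate cell list was 82.1 to 89.5 FPKM in Sham and 24.5 to 35.2 in IR injury. Monocyte, cholangiocyte, T cell and B cell lists summed to 58.7-59.1, 23.8-27.3, 1.84-3.16 and 2.26-2.49 FPKM in Sham. In IR injury the same lists came to 54.9-66.3, 30.5-41.2, 1.19-2.04 and 0.702-1.01. No marker of any list was at 0 in all 6 libraries, and the neutrophil gene Ly6g was at 0 in the libraries Sham 2 and Sham 3.

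Within IR injury, the sinusoidal endothelial sum was 38.7, 56.9 and 79.7 FPKM and the neutrophil sum 139, 164 and 184 in libraries 1, 2 and 3. Osmr (1.60, 2.05 and 2.18), Socs1 (5.79, 7.16 and 8.46) and Il6st (32.1, 34.7 and 36.5) were lowest and highest in the same libraries. The other members were not: Il6ra, Jak1 and Jak2 were highest in library 2, and Tyk2 was lowest there. Socs3, Stat3 and Lifr were highest in library 1, although Socs3 was nearly equal in all 3. Many genes can share an order over 3 libraries. The part of these cells in the values was not tested.

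Profiles most like those of 4 members were sought among 4674 named genes with a mean of at least 5 FPKM, by the root mean square distance of centred log2(FPKM + 1) values over the 6 libraries. Nearest to Socs3 were Tiparp (0.0417), Steap4 (0.0980) and Mrap (0.134). Nearest to Stat3 were Apobec1 (0.0382), St3gal1 (0.0417) and Dpp9 (0.0421). Nearest to Osmr were Tns1 (0.0360), Gda and Glrx, and nearest to Il6ra were Uhmk1 (0.0341), Tom1l2 and Ctif. With 2 groups of 3 libraries this measure mainly compares the size of the step between groups, and Tiparp went from 1.62 to 75.3 FPKM where Socs3 went from 3.35 to 126.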

How the data were processed

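Total RNA of mouse liver was extracted with a column kit and made into libraries with a SMARTER mRNA-Seq kit, per the labels' protocols. The authors deposited 1 table of FPKM values with 1 column per library, and the submitters' processing notes list the build mm10. Which aligner, counter and annotation the authors used, and whether reads were counted by strand, is not given in the sources used here. Groups and replicate numbers come from the titles, and no column was left unused (0).

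Depth was rebuilt as FPKM times the GENCODE M21 exon length times a library total, which gave whole numbers within 0.05 in all libraries for 98.2% of 27072 genes. Values of 1 to 10 reads were even in 71.4% to 73.3%, so a rebuilt read may not be an independent fragment. Replicates of a group differed with a median chi-square of 1.92 to 3.66, against 0.455 for sampling noise if each rebuilt read were independent. Because the reads may not be independent, the excess over sampling noise may be smaller than these values show. Each replicate was counted once.

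The test was two-sided, with limma 3.58.1 under R 4.3.3 and a trended prior, on log2(FPKM + 1) of all genes whose mean FPKM reached 1, with Benjamini-Hochberg adjustment over all genes and a threshold of 0.05. The fit was run on simulated data in which a few genes changed, about as many up as down. Scaling under a broad shift, as in these data, was not tested by it. Ratios within a library were compared by exact permutation tests in Python 3.11.15 with scipy 1.17.1. No protein sequences were used here, and a few genes and sequences are not reported here.

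The members and lists were chosen with earlier results of these data known. Named genes are the 10 members, any gene of the ligand, receptor, JAK and STAT, regulator and partner lists, and up to 6 of each target or cytokine receptor list by size of change. Target genes named for a motif or as exceptions were added after their values were seen. The alternatives were other pseudocounts, filters, scalings, a robust fit, a replicate block, limma voom on rebuilt reads and leaving out each library.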

Additional observations from a re-analysis of the deposited data

How the results depend on the processing

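All 10 members kept their direction and passed the adjusted threshold in each alternative in which they were tested, 157 values in all. Il6ra came nearest to the threshold, with adjusted p from 0.000176 to 0.0412 over its alternatives. With a mean FPKM of at least 5 as the filter, Osmr, Socs1 and Tyk2 were not tested, so that 1 member was lower, and 1359 genes were higher and 2573 lower. With no filter 8843 genes were lower, and with median-of-ratios scaling 3939 were higher. The replicate block left 8 members higher and 2 lower, with 2473 genes higher and 5491 lower. The numbers of the titles share only a number: deviations of same-numbered libraries correlated at -0.096, -0.050 and -0.22, and no library correlated best with its own number. With no filter 4 ligand genes were higher, and 1 other receptor gene was higher and 2 lower. With the filter at 5, 0 ligand, 0 other receptor and 0 partner genes and 2 other negative regulators were lower, since fewer genes were tested. Under median-of-ratios scaling 3 negative regulators were lower, and under quantile normalization 3 regulators. After rescaling to TPM 2 other STAT3 targets were lower. With 1 added to both FPKM values, the log2 ratio of Socs3 to Socs1 was 2.08 higher in IR injury, in place of 0.30 lower, because 1 exceeds the Sham level of Socs1. The same change took Osmr to Lifr from 1.94 to 1.30, Osmr to Il6ra from 1.10 to 0.50 and Jak2 to Jak1 from 0.33 to 0.19. Leaving out each library in turn gave 2335 to 2479 genes higher and 5248 to 5530 lower, and changed no call or direction of a member. Depth limits Socs1, Il6 and Osm in Sham, which rest on 0 to 46 reads per library.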

Other observations

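Other cytokine receptors moved in both directions. Of 12 tested, 4 rose, 6 fell and 2 did not pass, with a median log2 fold change of -0.22 beside -0.23 for all genes, and after median-of-ratios scaling 5 were higher and 5 lower. Il4ra, for interleukin 4 and 13, rose from 4.98, 5.04 and 5.35 to 16.5, 18.8 and 21.4 FPKM (1.69, limma adjusted p = 1.42e-06), and its partner Il13ra1 rose from 10.1, 11.2 and 10.2 to 35.5, 34.4 and 34.9 FPKM (1.64). Stat6, the factor these receptors use, fell in the same libraries, as given above. Lepr, the leptin receptor, which uses JAK2 and STAT3, rose from 4.33, 4.38 and 4.44 to 10.7, 13.9 and 16.5 FPKM (1.43, limma adjusted p = 2.73e-05). Ghr, the growth hormone receptor, fell from 40.7, 43.0 and 45.0 to 24.3, 25.4 and 24.4 FPKM (-0.77), and Csf1r, the receptor of macrophage colony-stimulating factor and also a Kupffer cell marker, fell by 1.32. Csf1r is a receptor tyrosine kinase and, unlike the others of the list, does not rely on JAKs. Without it, a choice made after the values were seen, 4 of 11 rose and 5 fell, with a median of -0.14. Ifnar1, a subunit of the type I interferon receptor that TYK2 serves, fell by 0.71.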
